A study of Gossypium hirsutum and Gossypium barbadense with 16 samples.

Results

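Gohir.D10G213600 is an auxin response factor gene of cotton that the study named ARF16, and its identifier places it on chromosome D10 of the D subgenome. It is 1 of the 52514 orthologs listed for both cotton species and 1 of the 20 ARF genes named in the study's family tree. The tree names ARF genes that the study listed as changed in fiber, so these 20 are not the whole family. It was chosen by its values in fiber cells, where the study drew it as reduced, so its fiber levels and their differences from epidermis or between lines are given here as a description, with no test, and nothing is supported by them. Whether the wild type against mutant contrast at 0 days post anthesis (DPA) also entered that choice is not stated.

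Auxin response factors are DNA-binding proteins that recognize auxin response elements in promoters and switch the attached genes on or off as auxin levels change. In Arabidopsis, ARF16 belongs with ARF10 and ARF17 to a class that mainly represses its targets, and transcripts of these genes are cut under the guidance of the microRNA miR160. Cotton fibers are single cells that grow out of the ovule epidermis around anthesis, and auxin promotes their initiation.

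Transcripts were sequenced from cells taken by laser-capture microdissection (LCM) from ovules of plants grown in a greenhouse, in 16 libraries that fall into 8 groups of 2 biological replicates. The cells came from G. barbadense accession 3-79 (Gb3-79) and G. hirsutum accession TM-1 (GhTM-1), both wild type and fiber-bearing, and from GhMD17, a naturally occurring fiberless mutant with a G. hirsutum background. The 8 groups were Gb3-79 fiber at 2 DPA, GhTM-1 fiber at 2 DPA, GhMD17 epidermis at 2 and 0 DPA, Gb3-79 epidermis at 2 and 0 DPA, and GhTM-1 epidermis at 2 and 0 DPA. At 2 DPA the protruding fibers of the wild types were cut off first and the epidermis beneath was captured afterwards, whereas at 0 DPA the wild-type epidermis was captured as 1 layer with the young fiber initials in it. GhMD17 is a line of its own and not GhTM-1 with a single altered gene, so the mutation and the rest of the line's background cannot be told apart. Gb3-79 reads were mapped to another reference genome than the other reads, so species, line and reference cannot be told apart either.

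Expression was deposited as FPKM, the fragments mapped to a gene scaled to its length and to the size of the library. Counts were not recovered from these values, so the number of reads behind each value is unknown, and 2 libraries per group limit the precision. Between 25689 and 29504 orthologs exceeded 1 FPKM in a library. The captured tissues were checked against 4 fiber markers that the study named on these same samples, 2 GhMYB25 and 2 GhMYB109 homologs. The GhMYB25 homologs summed to 374 to 386 FPKM in Gb3-79 fiber, 459 to 477 FPKM in GhTM-1 fiber, 20.6 to 22.7 FPKM in GhMD17 at 2 DPA and 0.196 to 1.61 FPKM in GhMD17 at 0 DPA. In the wild-type epidermis they summed to 151 to 162 FPKM in Gb3-79 at 2 DPA, 233 to 258 FPKM in Gb3-79 at 0 DPA, 269 to 273 FPKM in GhTM-1 at 2 DPA and 344 to 434 FPKM in GhTM-1 at 0 DPA. The GhMYB109 homologs were far lower and did not follow this order. They summed to 38.9 to 46.2 FPKM in Gb3-79 fiber and 18.8 to 24.1 FPKM in GhTM-1 fiber, against 3.14 to 11.2 FPKM over all wild-type epidermis and 4.47 to 9.01 FPKM over all GhMD17 libraries. In the epidermis, therefore, the markers that set the wild types above the mutant at both stages were the GhMYB25 pair, whereas the GhMYB109 pair overlapped between GhMD17 and Gb3-79 at both stages and, by its sums, lay above GhTM-1 in GhMD17 at 0 DPA and below it at 2 DPA, which was not tested. The only value of 0 among the markers was that of Gohir.1Z049716, a GhMYB25 homolog, in GhMD17 at 0 DPA replicate 1.

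The D10 gene was high in the fiberless mutant and in Gb3-79 epidermis, intermediate in GhTM-1 epidermis and low in fibers of both species. It had 33.7 and 51.0 FPKM in GhMD17 at 2 DPA and 38.1 and 42.6 FPKM in GhMD17 at 0 DPA. It had 41.1 and 38.1 FPKM in Gb3-79 epidermis at 2 DPA and 41.7 and 27.2 FPKM in Gb3-79 epidermis at 0 DPA. In GhTM-1 epidermis it had 14.0 and 16.9 FPKM at 2 DPA and 17.3 and 23.7 FPKM at 0 DPA. All 8 libraries of GhMD17 and Gb3-79 epidermis lay above all 4 of GhTM-1 epidermis.

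The order of the group means was GhMD17 at 2 DPA (42.4 ± 12.2 FPKM, SD, n = 2), GhMD17 at 0 DPA (40.3 ± 3.21), Gb3-79 epidermis at 2 DPA (39.6 ± 2.16), Gb3-79 epidermis at 0 DPA (34.4 ± 10.2), GhTM-1 epidermis at 0 DPA (20.5 ± 4.48), GhTM-1 epidermis at 2 DPA (15.4 ± 2.03), Gb3-79 fiber (8.37 ± 0.782) and GhTM-1 fiber (5.23 ± 1.21). Neighbours among the first 4 of these groups overlapped, so their order is not resolved by the replicates. From Gb3-79 epidermis at 0 DPA downwards, no group overlapped the next. The highest mean was 8.10 times the lowest.

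**Figure D1:**
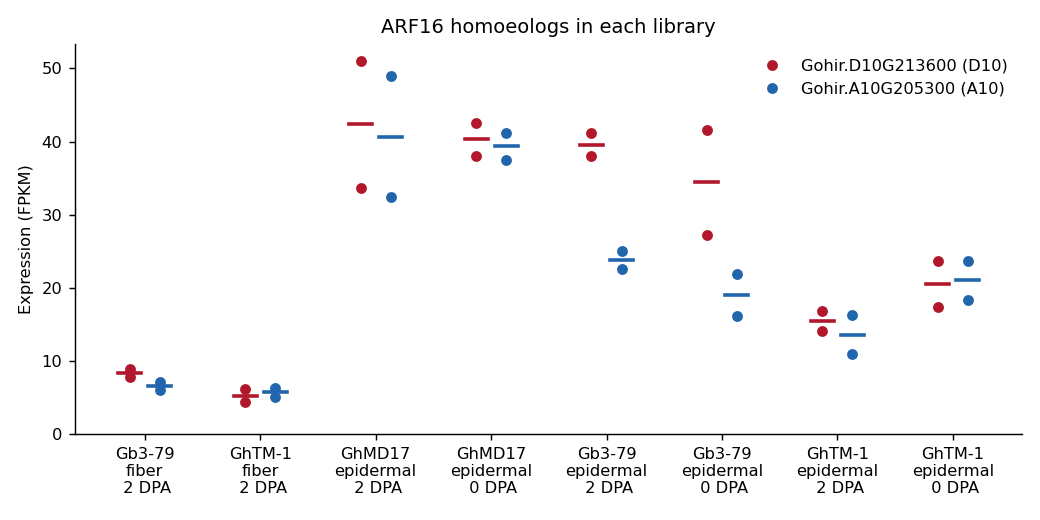
FPKM (vertical axis) of Gohir.D10G213600 and of its A10 homoeolog Gohir.A10G205300 in each of the 16 libraries, by group; points are libraries and bars are means of 2. The D10 gene lies at 27.2 to 51.0 FPKM in GhMD17 and Gb3-79 epidermis, at 14.0 to 23.7 FPKM in GhTM-1 epidermis and at 4.37 to 8.93 FPKM in fibers, and the A10 gene lies below the D10 gene in all 4 libraries of Gb3-79 epidermis.

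Fiber cells had the lowest values, which is what chose the gene. Gb3-79 fiber had 7.82 and 8.93 FPKM, against 41.1 and 38.1 FPKM in Gb3-79 epidermis at 2 DPA, a log2(FPKM + 1) difference of -2.12. GhTM-1 fiber had 6.08 and 4.37 FPKM, against 14.0 and 16.9 FPKM in GhTM-1 epidermis at 2 DPA, a difference of -1.41. Set against the epidermis of GhMD17 at 2 DPA, the differences were -2.18 for Gb3-79 fiber and -2.78 for GhTM-1 fiber. These comparisons share fiber and mutant libraries with each other and are not independent. For scale, of the 42627 orthologs tested 8.46% were called lower and 3.27% higher in Gb3-79 fiber than in its epidermis, and 5.73% lower and 1.77% higher in GhTM-1 fiber than in its epidermis. Against GhMD17, 10.8% were called lower and 5.94% higher in Gb3-79 fiber, and 10.4% lower and 4.98% higher in GhTM-1 fiber. Except between stages, a call needed a mean above 5 FPKM in at least 1 of the groups and a ratio of means above 1.5, or above 2 for fiber against GhMD17, as the study set them. The study named no ratio limit for Gb3-79 against GhTM-1, where 1.5 was carried over here. A call also needed an unadjusted P below 0.01, taken here from limma. The shares are over all 42627 orthologs, also those too low to be called, so shares among well-expressed orthologs would be higher.

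The fiberless mutant was set against the wild types to ask which transcripts differ where no fibers form. At 2 DPA the D10 gene was higher in GhMD17 than in GhTM-1 epidermis, at 33.7 and 51.0 FPKM against 14.0 and 16.9 FPKM. The ratio of means was 2.74 and the log2 difference 1.37 (95% interval 0.81 to 1.94), with a limma adjusted p of 0.0113 by the Benjamini-Hochberg method. The gene passed both the limits, by which 2.77% of orthologs were called higher and 3.29% lower, and an adjusted p below 0.05, by which 2.07% were higher. Both groups were references for fiber in the study, so this test is not independent of the choice of the gene. The limits were passed under every alternative run, but the adjusted p was 0.0945 without GhTM-1 replicate 1, 0.0835 without GhMD17 replicate 2 and 0.0814 when only the libraries compared were fitted by limma. More expressing cells and more RNA per cell cannot be told apart in captured tissue. At this stage the GhMYB25 homologs summed to 20.6 to 22.7 FPKM in GhMD17 and 269 to 273 FPKM in GhTM-1 epidermis, and the GhMYB109 homologs to 4.47 to 8.58 FPKM in GhMD17 and 9.32 to 10.5 FPKM in GhTM-1 epidermis, and their part in the difference was not tested.

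At 0 DPA the D10 gene had 38.1 and 42.6 FPKM in GhMD17 and 17.3 and 23.7 FPKM in GhTM-1 epidermis, and the groups did not overlap. The ratio of means was 1.97 and the log2 difference 0.96 (95% interval 0.39 to 1.52), which passed the study's limits but not the adjustment over all orthologs (limma adjusted p = 0.0618). In this comparison 2.68% of orthologs were called higher and 3.7% lower by the limits, and 1.86% higher by the adjusted p. The gene no longer passed the limits when any 1 of 3 libraries was left out, with a log2 difference of 0.74 (limma adjusted p = 0.322) without GhTM-1 replicate 1, 1.04 (0.140) without GhMD17 replicate 1 and 0.88 (0.265) without GhMD17 replicate 2. At 0 DPA the GhMYB25 homologs summed to 0.196 to 1.61 FPKM in GhMD17 and 344 to 434 FPKM in GhTM-1 epidermis, and the GhMYB109 homologs to 8.91 to 9.01 FPKM in GhMD17 and 3.14 to 7.71 FPKM in GhTM-1 epidermis, and their part was not tested here either.

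Against Gb3-79 epidermis the same mutant libraries showed no detectable difference in the D10 gene. At 2 DPA it had 33.7 and 51.0 FPKM in GhMD17 and 41.1 and 38.1 FPKM in Gb3-79 epidermis, a log2 difference of 0.067 (95% interval -0.50 to 0.63, limma adjusted p = 0.964). At 0 DPA it had 38.1 and 42.6 FPKM in GhMD17 and 41.7 and 27.2 FPKM in Gb3-79 epidermis, a log2 difference of 0.25 (95% interval -0.31 to 0.81, limma adjusted p = 0.592). The groups overlapped at both stages. The intervals leave room for a difference of up to 0.63 at 2 DPA and 0.81 at 0 DPA on the log2 scale. Of all orthologs, 3.83% were called higher and 5.29% lower at 2 DPA, and 5.37% higher and 6.3% lower at 0 DPA. The GhMYB25 homologs summed to 20.6 to 22.7 FPKM in GhMD17 and 151 to 162 FPKM in Gb3-79 epidermis at 2 DPA. The GhMYB109 homologs summed to 4.47 to 8.58 FPKM and 8.55 to 11.2 FPKM, in the same order. At 0 DPA the sums were 0.196 to 1.61 FPKM and 233 to 258 FPKM for GhMYB25, and 8.91 to 9.01 FPKM and 7.11 to 10.1 FPKM for GhMYB109. The part of these markers was not tested.

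The 2 fiber-bearing lines were then compared with each other. At 2 DPA the D10 gene was higher in Gb3-79 than in GhTM-1 epidermis, at 41.1 and 38.1 FPKM against 14.0 and 16.9 FPKM, with a ratio of means of 2.56 and a log2 difference of 1.31 (95% interval 0.74 to 1.87, limma adjusted p = 0.00886). In this comparison 5.25% of orthologs were called higher and 2.99% lower by the limits, and 5.91% were higher by the adjusted p. Here too both groups were references for fiber in the study, so the test is not independent of the choice of the gene. The limits were again passed under every alternative run, and the limma adjusted p was 0.0726 without GhTM-1 replicate 1. The GhMYB25 homologs summed to 151 to 162 FPKM in Gb3-79 and 269 to 273 FPKM in GhTM-1 epidermis at 2 DPA. The GhMYB109 homologs summed to 8.55 to 11.2 FPKM and 9.32 to 10.5 FPKM, in the same order. At 0 DPA the sums were 233 to 258 FPKM and 344 to 434 FPKM for GhMYB25, and 7.11 to 10.1 FPKM and 3.14 to 7.71 FPKM for GhMYB109. The part of these markers in the differences was not tested. At 0 DPA the D10 gene had 41.7 and 27.2 FPKM in Gb3-79 and 17.3 and 23.7 FPKM in GhTM-1 epidermis. The difference of 0.71 (95% interval 0.14 to 1.27, limma adjusted p = 0.122) missed the limits, although the groups did not overlap. Without Gb3-79 replicate 2, the library with 27.2 FPKM, the difference was 1.00 (limma adjusted p = 0.0725) and passed the limits. In fibers the values were 7.82 and 8.93 FPKM in Gb3-79 and 6.08 and 4.37 FPKM in GhTM-1, a difference of 0.60. No test result is given for it because fiber values chose the gene. Of all orthologs, 4.72% were called higher and 3.49% lower in Gb3-79 epidermis at 0 DPA.

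Between the stages no difference in the D10 gene passed the test in any of the 3 lines. The log2 difference of 2 DPA from 0 DPA was 0.042 (95% interval -0.52 to 0.61) in GhMD17, 0.23 (95% interval -0.34 to 0.79) in Gb3-79 epidermis and -0.38 (95% interval -0.94 to 0.19) in GhTM-1 epidermis. The limma adjusted p was 1 in GhMD17, 0.879 in Gb3-79 and 0.664 in GhTM-1. GhTM-1 was the line whose stages did not overlap, with 14.0 and 16.9 FPKM at 2 DPA and 17.3 and 23.7 FPKM at 0 DPA. For stages a call needed the same P limit with a mean above 1 FPKM and a ratio above 2, and 2.23% of orthologs were called in either direction in GhMD17 and 2.63% in Gb3-79, while in GhTM-1 1.67% were called higher and 1.23% lower. The stage difference itself did not differ detectably between lines, at -0.42 for GhTM-1 minus GhMD17 (limma adjusted p = 0.949), 0.18 for Gb3-79 minus GhMD17 (adjusted p = 0.968) and 0.60 for Gb3-79 minus GhTM-1 (adjusted p = 0.709). In those 3 tests 0.298%, 0.375% and 0.368% of orthologs passed.

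**Figure D2:**
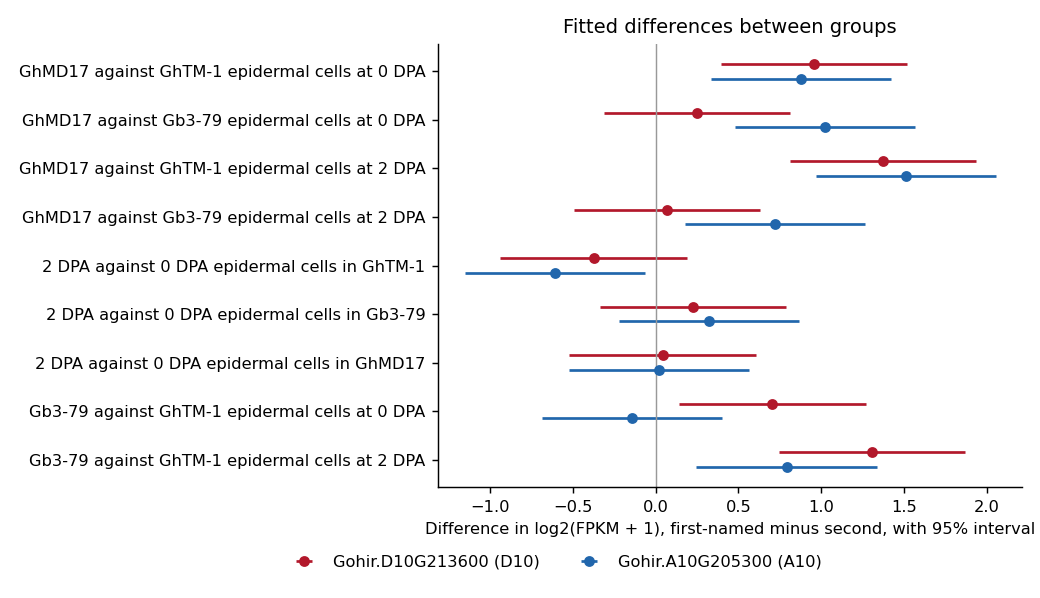
Fitted differences in log2(FPKM + 1) (horizontal axis) with 95% intervals for the D10 and A10 genes in the comparisons tested, each the first-named group minus the second. The D10 gene lies at 0.96 and 1.37 for GhMD17 against GhTM-1 and at 0.25 and 0.067 for GhMD17 against Gb3-79, where the A10 gene lies at 1.02 and 0.72.

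The A10 homoeolog, Gohir.A10G205300, is the copy that the study's tree pairs with the D10 gene and also names ARF16. In the mutant the copies were at nearly the same level. A10 had 32.5 and 48.9 FPKM in GhMD17 at 2 DPA and 37.5 and 41.2 FPKM in GhMD17 at 0 DPA. It had 25.0 and 22.6 FPKM in Gb3-79 epidermis at 2 DPA and 21.9 and 16.2 FPKM at 0 DPA, and 10.9 and 16.2 FPKM in GhTM-1 epidermis at 2 DPA and 18.4 and 23.7 FPKM at 0 DPA. In fibers A10 had 7.06 and 5.98 FPKM in Gb3-79 and 5.09 and 6.33 FPKM in GhTM-1. All 4 GhMD17 libraries thus lay above every wild-type library for A10, which was not so for D10.

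Against GhTM-1 epidermis the A10 copy was higher in GhMD17 at 2 DPA, by 1.51 on the log2 scale (limma adjusted p = 0.00565), and at 0 DPA the difference of 0.88 passed the limits with adjusted p = 0.0745. Against Gb3-79 epidermis it was higher in GhMD17 at 0 DPA, by 1.02 (limma adjusted p = 0.0179), where the D10 difference was 0.25. At 2 DPA the A10 difference from Gb3-79 was 0.72 (limma adjusted p = 0.0933) and was not called, where the D10 difference was 0.067. Between Gb3-79 and GhTM-1 epidermis the A10 difference was -0.14 at 0 DPA (limma adjusted p = 0.841) and 0.79 at 2 DPA, which passed the limits with adjusted p = 0.0745.

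The ratio of D10 to A10 within a library was near 1 in G. hirsutum epidermis and higher in Gb3-79 epidermis. It was 1.64 and 1.68 in Gb3-79 epidermis at 2 DPA and 1.90 and 1.68 at 0 DPA, and 1.11 and 1.49 in Gb3-79 fiber. In GhMD17 it was 1.04 and 1.04 at 2 DPA and 1.01 and 1.04 at 0 DPA. In GhTM-1 it was 1.28 and 1.04 in epidermis at 2 DPA, 0.943 and 0.998 in epidermis at 0 DPA, and 1.20 and 0.690 in fiber. Both fiber groups spread widely, at FPKM values below 10.

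Over all 16 libraries D10 exceeded A10 in 13, with a mean log2 ratio of 0.26 ± 0.39 (SD). Over the 12 epidermal libraries, without the fibers that chose the gene, it did so in 10, with a mean log2 ratio of 0.30 ± 0.37 (SD) and p = 0.0107 in an exact two-sided sign-flip permutation test. That mean joined unlike groups, and the test took libraries of the same line as independent units although they share that line. In the 8 epidermal libraries of G. hirsutum the mean log2 ratio was 0.064 (exact p = 0.172), and in the 4 of Gb3-79 it was 0.79, with D10 higher in 4 of 4 and an exact p of 0.125, the smallest that 4 libraries can give. The log2 ratio was 0.72 higher in Gb3-79 epidermis than in G. hirsutum epidermis (1.65-fold, 4 against 8 libraries, no overlap). The exact permutation p of 0.00202 is the smallest that these group sizes can give. It treats libraries of different stages and lines as exchangeable, which they are not, so it does not extend to other accessions. The restriction to epidermis and the split by species were chosen after the values were seen. Only uniquely mapped reads were counted and each species was mapped to its own genome, and how reads were divided between the copies in each was not tested, so the split of D10 from A10 is uncertain.

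**Figure D3:**
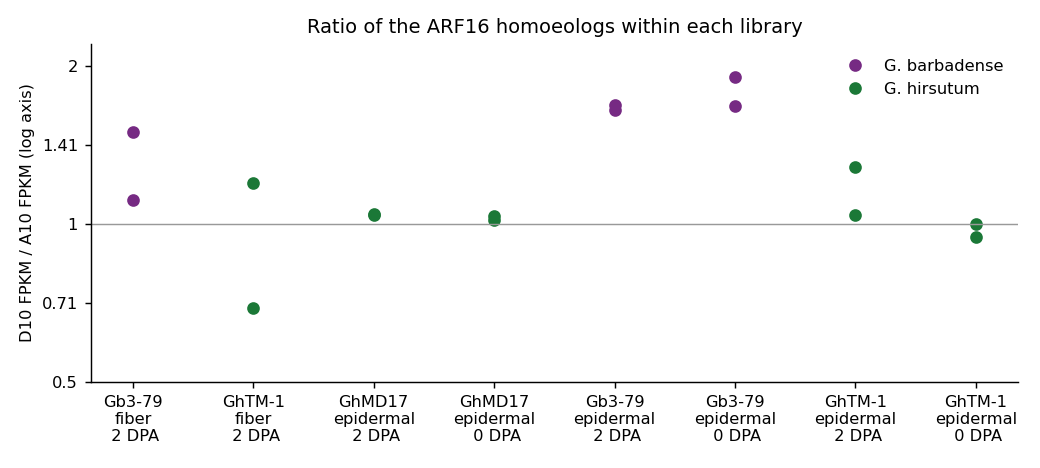
Ratio of D10 to A10 FPKM (vertical axis, log scale) in each of the 16 libraries by group, coloured by species. The 4 libraries of Gb3-79 epidermis lie at 1.64 to 1.90, above the 8 of G. hirsutum epidermis at 0.943 to 1.28, and the fiber libraries spread between 0.690 and 1.49.

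Among the 20 ARF genes listed the D10 gene was one of the more abundant transcripts, on the FPKM scale, which is per length. It ranked 2nd to 5th of the 20 ARF genes in GhMD17, 2nd to 3rd in Gb3-79 epidermis, 5th to 6th in GhTM-1 epidermis and 5th to 9th in fibers. Its share of the summed FPKM of these 20 genes was 8.10 to 13.4% in GhMD17, 11.4 to 13.7% in Gb3-79 epidermis, 5.74 to 8.85% in GhTM-1 epidermis and at most 6.58% in fibers. Other ARF genes were not counted. Gohir.D03G135400, named ARF10 and thus a relative by the Arabidopsis grouping, was far lower, with 4.54 and 6.43 FPKM in GhMD17 at 2 DPA and 5.27 and 5.70 FPKM in GhTM-1 epidermis at 2 DPA.

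At 2 DPA, 2 of the 20 ARF genes were called higher in GhMD17 than in GhTM-1 epidermis and 1 was called lower. The 2 higher genes were the D10 and A10 copies of ARF16, with log2 differences of 1.37 and 1.51. The lower gene was ARF19a (Gohir.A05G408200, -0.90), whose relatives in Arabidopsis activate their targets, and its call was lost with the adjusted p (0.106) and with values rescaled to equal summed FPKM. The list's median difference was 0.44, against 0.078 over all orthologs, of which 2.77% were called higher and 3.29% lower. Over orthologs with a mean of at least 5 FPKM the median was 0.098.

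At 0 DPA, 8 of the 20 were called higher in GhMD17 than in GhTM-1 epidermis and none lower, where 2.68% of orthologs were called higher and 3.7% lower. The median was 0.75, against 0.020 over all orthologs and 0.037 over those with a mean of at least 5 FPKM. ARF19b (Gohir.D05G036600) had the greatest difference in the list, 1.22, and the D10 gene at 0.96 ranked 7th. By the adjusted p, 4 of the 8 passed, an ARF19d, an ARF19b, an ARF6 and an ARF2 gene, and neither copy of ARF16 was among them.

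Against Gb3-79 epidermis the D10 gene stood low among the 20 ARF genes listed. At 0 DPA 11 of the 20 ARF genes were called higher in GhMD17 and 1 lower, with a median of 0.75 against 0.0067 over all orthologs, of which 5.37% were called higher and 6.3% lower. The D10 difference of 0.25 ranked 15th. At 2 DPA 3 were called higher and none lower, with a median of 0.48 against 0.015 over all orthologs, of which 3.83% were called higher and 5.29% lower. The count was 6 after rescaling by summed FPKM or by median ratios. The 3 were ARF8 (Gohir.A12G052900, 1.22) and 2 ARF2 genes (Gohir.D12G195600, 1.27, and Gohir.D07G051500, 1.00), and the D10 difference of 0.067 again ranked 15th. Since the tree's genes were drawn for their change in fiber on these libraries, the counts are a description of the list and not independent evidence of its direction.

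**Figure D4:**
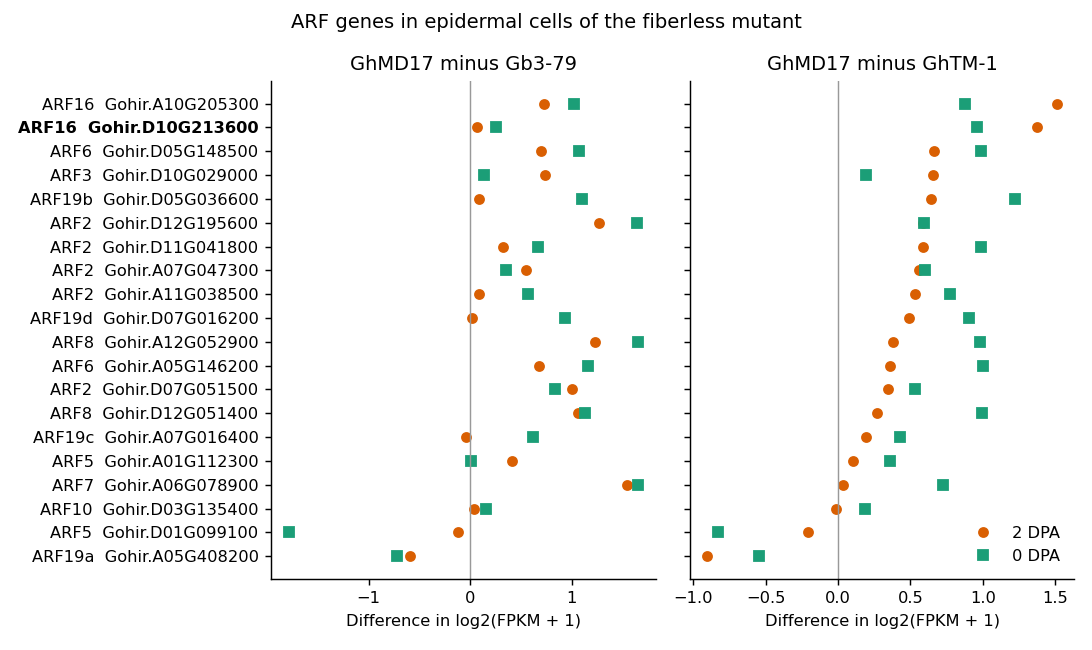
Difference in log2(FPKM + 1) (horizontal axis) of GhMD17 from Gb3-79 epidermis (left) and from GhTM-1 epidermis (right) for the 20 ARF genes, at 2 DPA (circles) and 0 DPA (squares), in the order of the GhTM-1 difference at 2 DPA. The D10 gene (bold) stands second from the top against GhTM-1 at 1.37 but near 0 against Gb3-79, at 0.067 and 0.25.

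Between Gb3-79 and GhTM-1 epidermis the D10 gene had the greatest positive difference of the 20 ARF genes at 2 DPA and the next to greatest at 0 DPA. At 2 DPA 2 were called higher in Gb3-79, again the D10 (1.31) and A10 (0.79) copies, and none lower, where 5.25% of orthologs were called higher and 2.99% lower, and the D10 gene alone stayed called when the values were rescaled by summed FPKM or by median ratios. At 0 DPA 1 was called lower, the ARF2 gene Gohir.D12G195600 (-1.05), and none higher, counts near the background shares of 3.49% lower and 4.72% higher. The medians of the list were -0.069 at 2 DPA and 0.0026 at 0 DPA, beside medians of 0 over all orthologs. In fibers the D10 difference of 0.60 ranked 3rd. Between stages 1 ARF gene was called higher at 2 DPA in GhTM-1, an ARF5 gene (Gohir.A01G112300, 0.99, limma adjusted p = 0.201), and none in either direction in Gb3-79 or GhMD17, where the background shares were 1.67% higher in GhTM-1, 2.63% in either direction in Gb3-79 and 2.23% in GhMD17.

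In the fiber contrasts, which chose the list, values are given with no test. The median difference of the 20 ARF genes from epidermis of the same line was -1.11 in Gb3-79 fiber and -1.10 in GhTM-1 fiber. Over all orthologs the medians were -0.11 and -0.092. In each line 1 of the 20 lay above its epidermis. The D10 difference of -2.12 in Gb3-79 was the most negative of the 20, and that of -1.41 in GhTM-1 ranked 14th from the top. ARF19a was the gene that lay above its epidermis, by 1.44 in Gb3-79 and by 0.35 in GhTM-1.

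Likeness of pattern was measured by Pearson's r on log2(FPKM + 1) over the libraries, among 17727 orthologs with a mean of at least 5 FPKM. These correlations are descriptions, since the libraries share groups, tissue composition and 2 reference genomes. Over all 16 libraries the gene most like the D10 gene was Gohir.D10G187200 (r = 0.988), followed by Gohir.D12G066800 (0.979), Gohir.A02G056300 (0.976), Gohir.A11G040800 (0.973) and Gohir.A12G250400 (0.972). The most opposite were Gohir.A03G021532 (-0.965), Gohir.D08G023100 (-0.957) and Gohir.D10G070600 (-0.956). The A10 copy, at 0.937, ranked 112th, and the median over all orthologs compared was 0.25.

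Without the fiber libraries, over the 12 epidermal ones, Gohir.D10G187200 again came first (r = 0.973), followed by Gohir.A10G211200 (0.958), Gohir.A05G147600 (0.954), Gohir.D08G179900 (0.950) and Gohir.D12G271700 (0.948), and 1 of the 5 was shared with the first list. By Spearman's rho over the same 12 libraries the order differed, with Gohir.A04G029200 first (0.972) and Gohir.D10G187200 5th (0.937), and the other 4 genes of that list were in neither list by Pearson's r. The A10 copy had 0.820 there, rank 271, and was first among the 19 other ARF genes. ARF19a had the lowest r of those 19 genes, -0.76 over 16 libraries and -0.51 over 12.

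Gohir.D10G187200 had 112 and 161 FPKM in GhMD17 at 2 DPA, 111 and 147 FPKM in GhMD17 at 0 DPA, 156 and 137 FPKM in Gb3-79 epidermis at 2 DPA and 130 and 88.7 FPKM in Gb3-79 epidermis at 0 DPA. In GhTM-1 epidermis it had 25.0 and 32.7 FPKM at 2 DPA and 22.3 and 48.0 FPKM at 0 DPA, and in fibers 13.4 and 11.4 FPKM in Gb3-79 and 4.32 and 2.58 FPKM in GhTM-1. As with the D10 gene, the mutant and Gb3-79 epidermis lay above GhTM-1 epidermis in every library, and all fibers lay below. The gene was picked for its r over these same libraries, so the shared order follows from that choice.

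**Figure D5:**
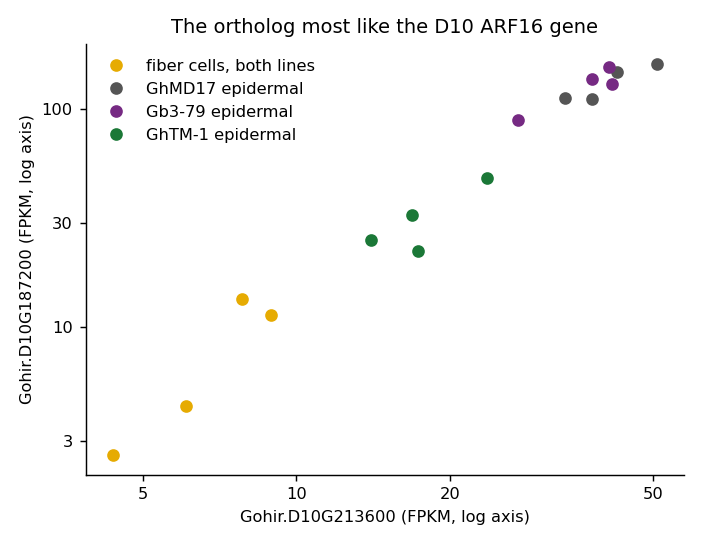
FPKM of Gohir.D10G187200 (vertical axis, log scale) against FPKM of Gohir.D10G213600 (horizontal axis, log scale), 1 point per library, coloured by tissue and line. The points run from fibers at the lower left over GhTM-1 epidermis to GhMD17 and Gb3-79 epidermis at the upper right (r = 0.988 over 16 libraries, for which Gohir.D10G187200 was picked).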

How the data were processed

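The authors sequenced polyA RNA of LCM cells, mapped the reads with TopHat2 2.1.1 to G. hirsutum genome v2.0 (GhTM-1 and GhMD17) or G. barbadense v1.0 (Gb3-79), kept uniquely mapped reads and deposited FPKM computed with Cufflinks 2.2.1; SAMtools 1.5 is also named in the submitters' processing notes. Per the file headers, each column is 1 library. The headers do not say whether ovules or captures were pooled within a library. The ortholog table held equal values to the tables of single lines, and its Gb3-79 values for this gene were those of Gobar.D10G239800 there (and Gobar.A10G222100 for A10). FPKM scales each library by its total, so a few abundant transcripts can shift all other genes. No coordinates or sequence of the gene were used here.

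Group means of log2(FPKM + 1) were fitted with limma 3.58.1 (R 4.3.3; trended variance, two-sided) over all 16 libraries for the 42627 orthologs above 0 in any library, with Benjamini-Hochberg adjustment over all of them. Fold changes on this scale understate those of low genes. The study's limits served for calls in place of its analysis of variance, which was not rerun, and the limits for stages and for differences between lines were set here. Exact permutation tests were run in Python 3.11.15 with SciPy 1.17.1. The fit and the exact tests were tested on simulated data. The limma p-values use a spread per gene that is pooled over the replicates of all groups and drawn toward a trend over all orthologs. They do not measure the spread of the compared groups alone. The exact p-values come from sign changes or regroupings of libraries and not from that spread. Genes named are the ARF genes of the study's tree, the fiber markers and the orthologs with the highest (5) and lowest (3) r. The gene, the lists and the rules were chosen with earlier results of these data known. Alternatives were other scalings, a pseudocount of 0.1, other filters, a replicate block, fewer libraries and a fit without a variance trend. Replicate numbers did not pair libraries.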

Additional observations from a re-analysis of the deposited data

Results flagged for a closer look

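The ratio of the D10 to the A10 copy differed between epidermis of Gb3-79 and of the G. hirsutum lines by a test of the difference itself. The log2 ratio in the 4 libraries of Gb3-79 epidermis exceeded that in the 8 libraries of G. hirsutum epidermis by 0.72, or 1.65-fold, with an exact permutation p of 0.00202, the smallest these numbers of libraries allow. The ratio was 1.64 to 1.90 in Gb3-79 and 0.943 to 1.28 in G. hirsutum epidermis. With GhMD17 left out, Gb3-79 against GhTM-1 epidermis gave 0.70 (4 libraries against 4, no overlap, exact permutation p = 0.0286, the smallest possible). The comparison was chosen after the values were seen. Species, line and reference genome cannot be told apart in it. The libraries are stages and replicates of a few lines and not independent samples of a species. The permutation treats them as exchangeable, so its p does not extend to other accessions.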

How the results depend on the processing

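The higher level in GhMD17 than in GhTM-1 epidermis at 2 DPA and that in Gb3-79 than in GhTM-1 epidermis at 2 DPA kept direction and passed the limits under every alternative run. Their adjusted p did not always stay below 0.05, ranging from 0.00566 to 0.0945 for GhMD17 and from 0.00485 to 0.0726 for Gb3-79. The 0 DPA difference of GhMD17 from GhTM-1 (0.96) was lost under the adjusted p limit and in 3 of 4 fits without 1 library. Leaving out each library in turn, the D10 log2 difference ranged from 0.74 to 1.17 for GhMD17 against GhTM-1 at 0 DPA, 1.08 to 1.67 for the same at 2 DPA, 0.41 to 1.00 for Gb3-79 against GhTM-1 epidermis at 0 DPA, 1.18 to 1.43 for the same at 2 DPA and 0.40 to 0.80 in fibers. It ranged from -0.048 to 0.55 for GhMD17 against Gb3-79 at 0 DPA, -0.23 to 0.36 for the same at 2 DPA, and for the stages from -0.25 to 0.33 in GhMD17, -0.072 to 0.53 in Gb3-79 and -0.59 to -0.16 in GhTM-1. The stage difference of Gb3-79 minus GhMD17 ranged from -0.11 to 0.48. Each of these sign changes was in a difference that was never called, and the uncalled stage difference in GhMD17 was also -0.019 after rescaling to equal summed FPKM. The mean log2 ratio of D10 to A10 was 0.024 in G. hirsutum libraries alone, 0.30 in epidermal libraries alone and 0.21 to 0.31 without single libraries. The 2 libraries per group and the FPKM unit limit all of these.

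With a replicate block the GhMD17 difference from GhTM-1 was 0.96 (limma adjusted p = 0.0755) at 0 DPA and 1.37 (0.0167) at 2 DPA, and no call of the D10 gene changed. Same-numbered libraries did not deviate together (r -0.097 to 0.14 over 28 pairs of groups, 3 of them above 0.1), so the numbers do not pair libraries.

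Counts of ARF genes called moved in some comparisons. In GhMD17 against GhTM-1 at 0 DPA 8 were higher, or 4 by the adjusted p, and against Gb3-79 at 2 DPA 3 were higher, or 6 after either rescaling. The 1 gene called lower in GhMD17 than in GhTM-1 at 2 DPA became 0 by the adjusted p and after rescaling by summed FPKM, as did the 1 called higher at 2 DPA in GhTM-1. In Gb3-79 against GhTM-1 epidermis, 2 higher at 2 DPA became 1 by the adjusted p and after either rescaling, 0 lower became 1 by the adjusted p and after median-ratio rescaling, and 1 lower at 0 DPA became 0 by the adjusted p. The median over all orthologs moved by more than 0.1 in Gb3-79 fiber against GhMD17, where it was -0.19 as deposited and -0.29 after rescaling by summed FPKM. In total 227 of 241 alternative values kept their direction and were counted as unchanged. These values include the fiber contrasts, which chose the gene and are given with no test. They also include the ratio of D10 to A10, to which the study's limits do not apply. The total therefore describes the runs and does not count calls that were kept.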
